A study of Homo sapiens and Mus musculus with 18 samples.

Results

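The comparison described here sets the V1 form of the receptor AMHR2 against its V3 form in Met5a, an immortalised line of human pleural mesothelial cells. It uses 7 of the 18 samples of the series, the 4 libraries titled V1 and the 3 titled V3, and all 58735 genes of the human table, of which 17175 had enough counts to be tested. The series calls V1 an active and V3 an inactive receptor and asks how the expression profiles of cells given one or the other differ. The genotype tag is Amhr2+ for both groups and WT for the 3 control libraries (CTR), which are used here only as a background level and to estimate the spread. All Met5a cells were kept in DMEM with 10% fetal bovine serum, and the labels name no added hormone. The labels do not say by which vector or promoter the receptor was introduced, whether a library came from 1 clone or from a pool of cells, or whether replicate libraries stem from separate cultures, so the p-values reflect the spread of these libraries alone, which may be technical.

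AMHR2 is the type II receptor for anti-Müllerian hormone (AMH), the hormone of the testis that makes the Müllerian ducts regress in the male fetus and that granulosa cells of the ovary make after birth. On binding AMH, AMHR2 pairs with a type I receptor of the BMP branch, such as ACVR1 (ALK2) or BMPR1A (ALK3), which phosphorylates SMAD1, SMAD5 and SMAD9. These enter the nucleus with SMAD4 and switch on direct targets such as the ID genes and the inhibitors SMAD6, SMAD7 and BAMBI. Mesothelial cells line the pleura, pericardium and peritoneum. They share keratins with epithelia and matrix and cytoskeletal genes with fibroblasts.

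The 7 libraries held 15489888 to 21642906 counts, and mitochondrially encoded genes took 3.22 to 4.93% of them, the most in V1 1. Levels are given as CPM, counts scaled to a common library size after TMM scaling, and a count of 0 allows up to 3 counts, which is 0.141 to 0.174 CPM in these libraries and covers counting error only. Of the markers that define mesothelial cells, MSLN (mesothelin) stood at 11.8 to 70.3 CPM, KRT8 at 746 to 2743 CPM and KRT18 at 326 to 1437 CPM. CALB2 (calretinin) stood at only 0.446 to 6.62 CPM, and WT1 and KRT19 at no more than 0.941 CPM in any of the 7. The leukocyte markers PTPRC, CD68 and CD3E stayed at or under 0.579 CPM, as did PDGFRA of fibroblasts. Other immune markers were detected, with CD14 at 2.9 to 11.5 CPM. CSF1R measured 2.43, 1.04, 1.46 and 0.232 CPM in V1 1 to 4, against 0.249, 0.169 and 0.289 CPM in V3. ITGAM and CD4 reached 1.85 and 1.1 CPM, both in V3 3. Markers of endothelial and epithelial cells were not all absent. The endothelial CDH5 ran from 1.04 CPM in V1 1 to 21.2 CPM in V1 2, with 19.3 CPM in V1 3. PECAM1 reached 7.49 CPM in V1 2, while VWF stayed at or under 0.926 CPM. The epithelial CDH1 reached 20.3 CPM in V1 1, 11.9 CPM in V1 4 and 10.3 CPM in V3 1, and EPCAM at most 4.98 CPM, in V1 1. The fibroblast collagen COL3A1 lay between 63.2 CPM in V3 3 and 812 CPM in V1 2.

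Several libraries stood apart from what their titles would give. V1 4 and V3 1, from opposite groups, were the most alike of all 45 pairs among the 10 Met5a libraries, with 3.64% of genes at least 2-fold apart and a Pearson r of 0.991 across genes (log2 CPM). Among the 11576 genes with a mean of at least 5 CPM, only 4 differed at least 2-fold between them, all singled out after their values were seen. The first pair of these is GPR89A and GPR89B, near-identical copies whose reads can be split either way. GPR89B stood at 5.1 CPM in V1 4 and 18.9 in V3 1, GPR89A at 24.7 and 11.2, and their sum at 29.8 and 30.04. The others were the pseudogene SPCS2P4 (2.03 and 4.43 CPM) and AC126755.2 (7.7 and 3.54 CPM). The pair differed by more than sampling noise, with a chi-square of 3.5 per gene where counting alone gives 1, and both are treated as the titles give them. That value does not show that they came from separate cultures, nor that each title is right, which was not tested, and every V1 against V3 value that includes them rests on the titles. No other pair of Met5a libraries had a chi-square under 23.1 per gene. Both were also close to CTR 2, from which 5.09% and 5% of genes were at least 2-fold apart.

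The other libraries fell into like pairs by group. V1 2 and V1 3 had 10.5% of genes at least 2-fold apart, and V3 2 and V3 3 had 9.22%. V1 1 stood apart from all 6 others, with 20.8 to 28.2% of genes at least 2-fold apart. Between groups, the 11 pairs other than V1 4 with V3 1 had 13.5 to 24.1% of genes at least 2-fold apart. Fold changes and list medians were therefore also computed without V1 4 and V3 1, and are given below beside those from all libraries. The pair was picked with these values in view. Leaving out 2 alike libraries of opposite groups tends to enlarge differences by construction, so a larger fold change without them is no added evidence.

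**Figure D1:**
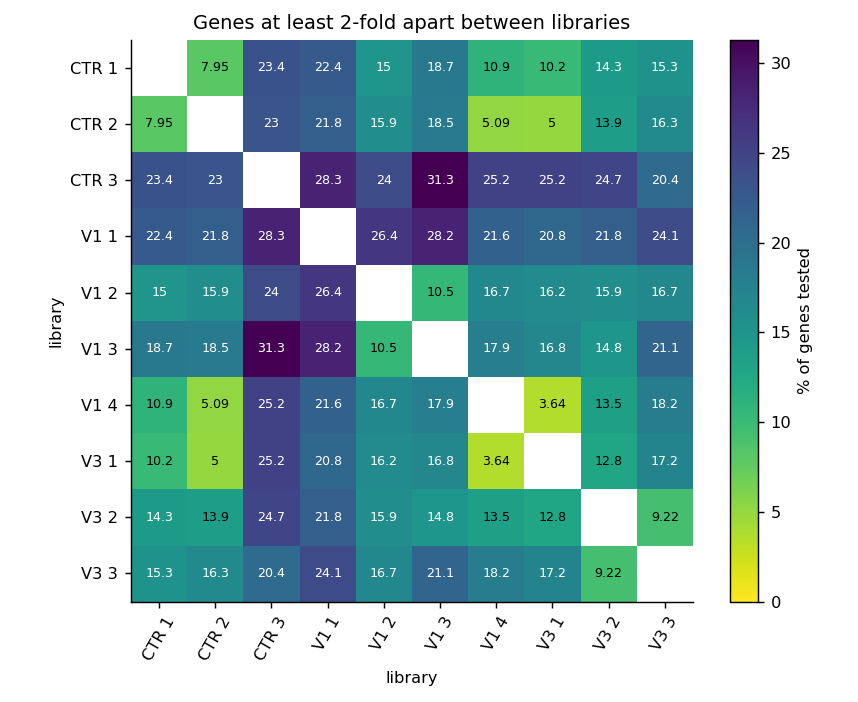
Percent of the 17175 tested genes that are at least 2-fold apart (log2 CPM) between each pair of the 10 Met5a libraries, both axes listing the libraries by group and number. The lightest field is V1 4 with V3 1 at 3.64%, and the fields of V1 1 with the other V1 and V3 libraries run from 20.8 to 28.2%.

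The receptor itself varied far more inside the groups than between them. AMHR2 (chromosome 12, 53423855 to 53431534, GRCh38) measured 68.1, 20.6, 1.98 and 5253 CPM in V1 1 to 4. In V3 1 to 3 it measured 6061, 61.8 and 2.72 CPM. V1 4 and V3 1, the pair most alike, are also the pair with by far the most receptor. V1 1 and V3 2 (68.1 and 61.8 CPM) are also close in receptor level, as are V1 3 and V3 3 (1.98 and 2.72 CPM). These pairs had 3751 and 3628 genes at least 2-fold apart, against 626 for V1 4 and V3 1. V1 1 stood apart from every other V1 and V3 library, and whether receptor level bears on likeness was not tested. The counts are per gene and do not separate one form of AMHR2 from the other. The log2 fold change of V1 over V3 was -0.61 (95% interval -5.77 to 4.55), and the two-sided exact permutation test of log2 CPM gave p = 0.714 over 35 arrangements, which can give no p under 0.0286. Without V3 1 the log2 fold change was 5.36, so 1 library sets its sign.

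ACVR1 (chromosome 2, 157736444 to 157875862), the type I partner receptor, followed the same order of libraries as AMHR2. It measured 575, 84.4, 49 and 5665 CPM in V1 1 to 4, against 7198, 327 and 79.7 CPM in V3 1 to 3, against 26.4 to 27.2 CPM in CTR. The groups overlapped throughout (log2 fold change -0.67, 95% interval -3.94 to 2.60, exact permutation p = 0.8), and the sign turned without V3 1 (2.96) and without both V3 1 and V1 4 (0.20). By likeness to AMHR2 over the 7 libraries, the 5 genes with the highest Pearson r of log2 CPM were AC068205.2, COL4A1, RASA3, AC008115.3 and ACVR1. These r values lean on the 2 libraries with the most receptor, so none is given, though for ACVR1 the order matched over all 7 libraries. COL4A1, a chain of basement membrane collagen, reached 84.4, 75.7, 39.3 and 191 CPM in V1 1 to 4, against 197, 68 and 45.8 CPM in V3 1 to 3. RASA3, a GTPase-activating protein for Ras-family proteins, stood at 29.9, 26.4, 24.6 and 43.7 CPM in V1 and at 43.5, 32 and 24.8 CPM in V3. In both genes V1 4 and V3 1 were highest, at about the same level. AMH, the ligand, was expressed in all 7 libraries at 38.8 to 61.4 CPM, with overlapping groups (log2 fold change 0.031, 95% interval -0.48 to 0.54, exact permutation p = 0.857).

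**Figure D2:**
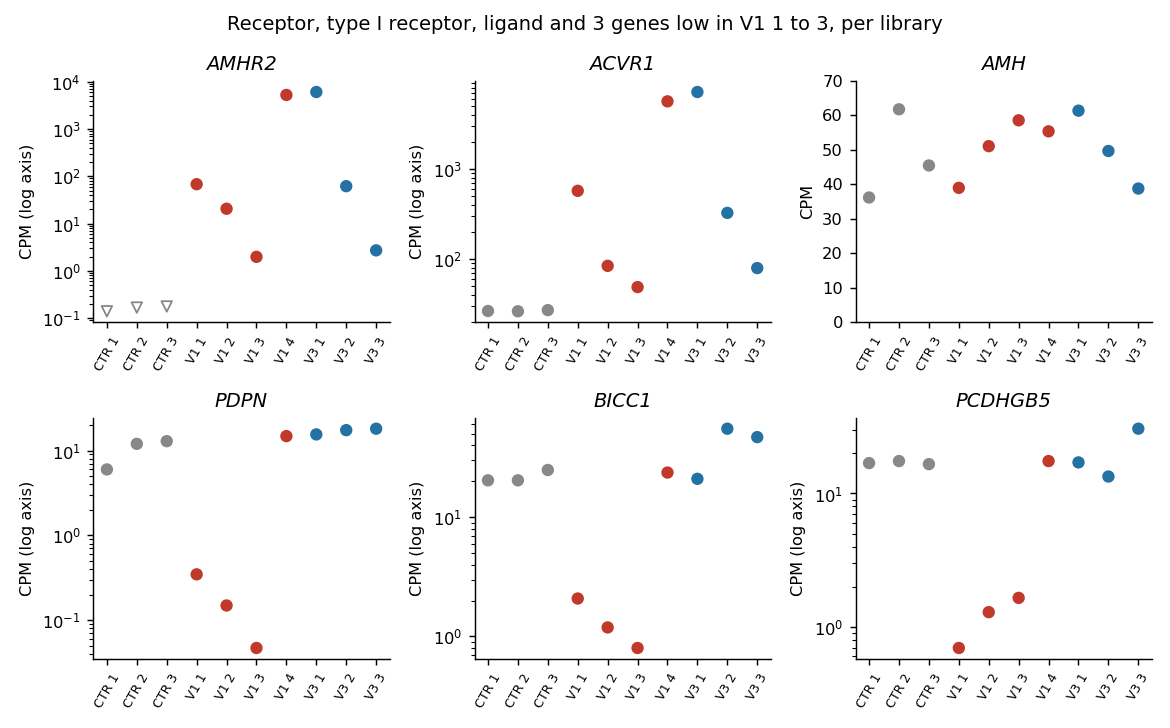
Level in CPM of AMHR2, ACVR1, AMH, PDPN, BICC1 and PCDHGB5 in each of the 10 Met5a libraries (grey CTR, red V1, blue V3), on a log axis except for AMH, and with open triangles at the limit that a count of 0 allows. AMHR2 and ACVR1 are highest in V1 4 and V3 1, whereas PDPN, BICC1 and PCDHGB5 are low in V1 1 to 3 and V1 4 lies with the V3 libraries.

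Across all genes, no gene was called. The edgeR quasi-likelihood test, fitted over all 10 Met5a libraries with Benjamini-Hochberg adjustment, called 0 of 17175 genes at an adjusted p of 0.05 (0%). Before adjustment 689 genes (4.01%) had a p under 0.05, and the smallest adjusted p was 0.985. DESeq2 called 1 gene (0.00582%), and limma on log2(FPKM + 1) called 0. With no filter on low counts edgeR called 75 of 35629 genes (0.211%), 26 higher and 49 lower in V1. Of those 75, 67 had also been tested with the filter, where none passed. A call in this comparison thus depends on the filter. The 95% interval of the fold change lay inside 2-fold either way for 8990 of 17175 genes (52.3%). That share was 84.7% for genes with a mean of 20 to 100 CPM and 0.125% for genes under 1 CPM. For the other 8185 genes the interval takes in a difference above 2-fold, and a like action of both forms cannot be read from the lack of calls.

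Leaving V1 4 out brought 3 calls (0.0175%), and leaving out V1 4 and V3 1 together brought 3 of 17791 genes (0.0169%). They were PDPN, BICC1 and PCDHGB5 each time, all lower in V1. PDPN (chromosome 1, 13583465 to 13617957) encodes podoplanin, a mucin-like membrane glycoprotein used as a mesothelial marker. It measured 0.347, 0.149 and 0.047 CPM in V1 1 to 3, which is 6, 3 and 1 counts, but 14.8 CPM in V1 4. The V3 libraries measured 15.5, 17.4 and 18.1 CPM and the CTR libraries 5.99, 12 and 12.9 CPM. V1 1 to 3 thus had almost no PDPN, and V1 4 had nearly the level of V3. BICC1 (chromosome 10, 58513140 to 58831437), an RNA-binding protein, measured 2.08, 1.19, 0.8 and 23.7 CPM in V1 1 to 4 against 21, 55.3 and 47 CPM in V3 and 20.4, 20.4 and 24.9 CPM in CTR. PCDHGB5 (chromosome 5, 141397987 to 141512979), a neuronal-type adhesion protein of the gamma protocadherin cluster, measured 0.695, 1.29, 1.65 and 17.5 CPM in V1 1 to 4. Its level was 17.1, 13.4 and 30.6 CPM in V3 and 16.6 to 17.5 CPM in CTR. Genes of that cluster share their last exons and overlap on the genome, so reads may be split between them. With all libraries the log2 fold changes were -2.15 for PDPN (SE 1.24), -2.57 for BICC1 (SE 0.932) and -1.95 for PCDHGB5 (SE 0.866). Without V1 4 and V3 1 they were -6.61, -5.24 and -4.15, with edgeR adjusted p of 0.0185, 0.00317 and 0.0413. That pair was picked by its expression in these same data, and V1 4 stood close to V3 1 in these genes. The calls made without V1 4 are therefore a description, and their adjusted p-values do not hold the usual error rate.

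The groups did not overlap, all V1 libraries lying on one side of all V3 libraries, in 845 genes (4.92%). Of these, 391 (2.28%) were higher and 454 (2.64%) lower in V1. A random order of the libraries gives a share of 0.0286 in each direction, above both shares seen, so non-overlap alone does not set a gene apart. The gap between the groups was under 0.5 (log2) in 94.9% of the higher and 94.3% of the lower genes. In 303 of them (35.9%) the closest libraries of opposite groups were V1 4 and V3 1. The 12 protein-coding genes with the smallest edgeR p in each direction among those with a mean of at least 5 CPM are described next. None was called with the filter on low counts, where each had an adjusted p of 0.985. With no filter edgeR called 6 of the 24 (KRT5 adjusted p = 6.9e-05, SLFN11 and RORB 0.0007, RHOV 0.00854, PODXL 0.0309, DSP 0.0426), so their call depends on that setting.

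KRT5 and DSP, both higher in V1, belong to keratin filaments and their anchors in the cell membrane. The first (chromosome 12, 52514575 to 52520687), a keratin of basal epithelial and mesothelial cells, measured 6.31, 47.1, 51.6 and 3.18 CPM in V1 1 to 4. In V3 it measured 2.99, 0.452 and 0.173 CPM, and V1 4 and V3 1 again sat next to each other. The log2 fold change was 4.46 (SE 1.28), and 6.79 without those libraries. DSP (chromosome 6, 7541575 to 7586717), the desmosomal plaque protein desmoplakin, measured 183, 282, 200 and 177 CPM in V1 1 to 4, against 159, 49.6 and 62.1 CPM in V3 (log2 fold change 1.22, SE 0.381, and 2.00 without V1 4 and V3 1). A list of 18 tested desmosome and keratin genes, added after these values were seen, had a median log2 fold change of 0.088, against 0.031 over all genes tested, with 10 higher and 8 lower.

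RHOV (chromosome 15, 40872214 to 40874289), an atypical small GTPase, measured 5.96, 24.8, 33.2 and 4.52 CPM in V1 1 to 4, against 3.59, 4.46 and 2.54 CPM in V3 (log2 fold change 2.28, SE 0.67). V1 2 and V1 3 carry most of that difference. PODXL (chromosome 7, 131500262 to 131558217), the sialomucin podocalyxin, measured 201, 651, 375 and 179 CPM in V1 1 to 4, against 176, 142 and 96 CPM in V3 (1.35, SE 0.447, and 0.87 without V1 2). POU6F1 (chromosome 12, 51186936 to 51217708), a POU-domain transcription factor, measured 10.1, 11.8, 6.92 and 4.28 CPM in V1 1 to 4, against 3.09, 3.39 and 3.64 CPM in V3 (1.30, SE 0.371). E2F3 (chromosome 6, 20401906 to 20493715), a transcription factor of the entry into S phase, measured 80.9, 100, 89.2 and 68.8 CPM in V1 1 to 4, against 59.5, 53.5 and 51.2 CPM in V3 (0.63, SE 0.192). The scaffold protein gene SHANK3 lay between 36.7 and 51.6 CPM in V1 and between 21.8 and 32.7 CPM in V3. The other named genes of this direction were SERINC5 (log2 fold change 0.98), MTMR11 (0.94), SLC22A23 (0.81), LPCAT2 (0.75) and ATXN1 (0.69), which encode a lipid-scrambling restriction factor, a myotubularin-related protein, a transporter-family protein, a lysophospholipid acyltransferase and the transcriptional regulator ataxin 1.

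Among the genes lower in V1, SLFN11 (chromosome 17, 35350305 to 35373701), which blocks stressed replication forks, measured 2.14, 7.39, 3.48 and 12.9 CPM in V1 1 to 4. In V3 it measured 13.9, 21.5 and 52.1 CPM (log2 fold change -2.17, SE 0.567, and -3.07 without V1 4 and V3 1). RORB (chromosome 9, 74497365 to 74693177), an orphan nuclear receptor, measured 1.79, 0.446, 0 and 1.74 CPM in V1 1 to 4, against 2.14, 5.08 and 29.3 CPM in V3 (-3.62, SE 1.1). V3 3 held most of it, and V3 1 lay close to V1 1 and V1 4. CD47 (chromosome 3, 108043094 to 108091862), the surface protein that signals to SIRPA on phagocytes, measured 25, 33.7, 34.6 and 35.4 CPM in V1 1 to 4, against 36, 84.7 and 64.5 CPM in V3 (-0.94, SE 0.279). V1 4 and V3 1 differed by less than 1 CPM there. LTBP3, which holds latent TGF-beta in the matrix, lay between 214 and 321 CPM in V1 and between 324 and 636 CPM in V3 (-0.81, SE 0.246). The basement membrane collagen chain COL4A6 lay between 26.3 and 35.4 CPM in V1 and between 36.2 and 87.4 CPM in V3 (-0.89). Without V3 3 the fold changes were smaller, at -0.48 for COL4A6, -0.52 for LTBP3 and -1.89 for RORB. The lipoprotein receptor VLDLR (-1.10), the phospholipase PLA2G12A (-0.89) and the LIM-domain protein LIMD2 (-0.83) were also lower, and without V3 3 VLDLR was at -0.71 and PLA2G12A at -0.58. The last 4 of the 12 were ribosomal protein genes, RPL37, RPL31, RPL35A and RPL26.

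**Figure D3:**
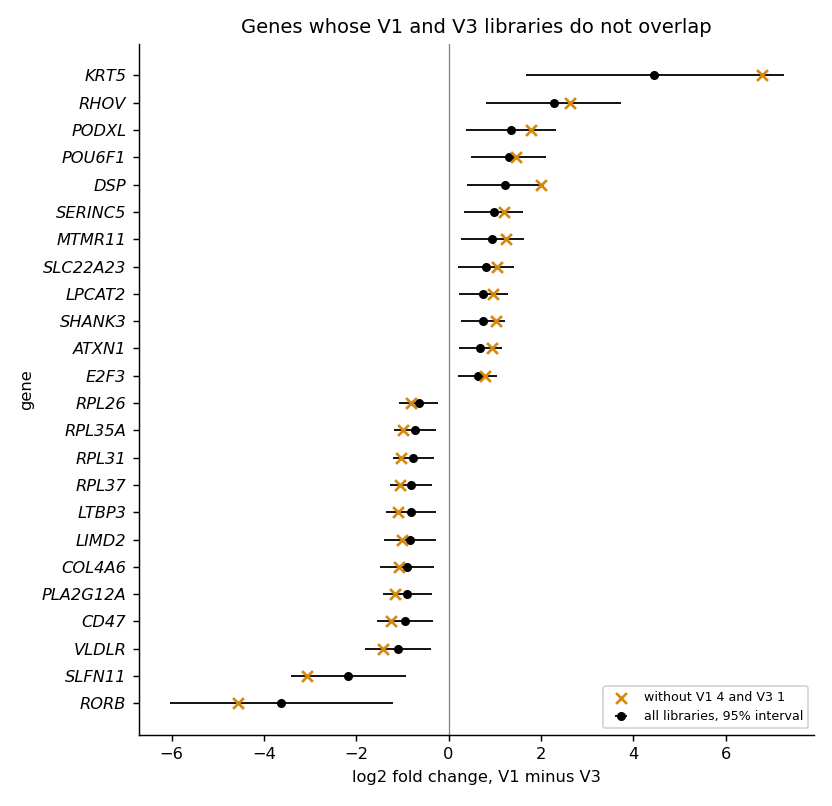
Log2 fold change of V1 over V3 for the 24 named genes, with points and bars for the edgeR estimate and its 95% interval from all libraries and crosses for the estimate without V1 4 and V3 1. KRT5 is highest at 4.46 and RORB lowest at -3.62, and every cross lies farther from 0 than its point. That move is partly by construction, because the genes were picked for groups that do not overlap and V1 4 and V3 1 are alike.

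Because 4 of those 12 encode parts of the ribosome, all 79 cytoplasmic ribosomal protein genes were looked at as a list added after these values were seen, so their counts are a description with no test. Of the 79, 78 had a lower mean in V1 and 1 a higher one, with a median log2 fold change of -0.34, against 53.8% higher and a median of 0.031 among all genes tested. For 38 of them all 4 V1 libraries lay below all 3 V3 libraries, where 2.64% of all genes did so. The difference was small across the family, with RPL24 lowest at -0.84. RPL37 (chromosome 5, 40825262 to 40835335) measured 248, 257, 235 and 305 CPM in V1 1 to 4, against 341, 521 and 510 CPM in V3, where CTR held 367 to 473 CPM (log2 fold change -0.81, SE 0.205). RPL31 (chromosome 2, 101001715 to 101024032) measured 211, 214, 228 and 330 CPM in V1 and 348, 447 and 454 CPM in V3 (-0.76, SE 0.207). RPL35A (-0.72) and RPL26 (-0.65) had similar fold changes. Ribosomal protein genes took 3.31, 3.48, 4.1 and 4.03% of all counts in V1 1 to 4, 4.25, 5.1 and 5.05% in V3 1 to 3, and 5.32, 4.58 and 4.12% in CTR 1 to 3. V1 4 and V3 1 were again next to each other. Without that pair 77 of 79 were lower in V1, with a median of -0.42, and without V1 1 it was 73 of 79 with a median of -0.24. Ribosomal protein genes have many processed pseudogenes, among which reads may be split.

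Ribosomal protein messages share a start that few other genes have, and it is shown here because the family's mRNAs are known as a group by it. Their transcripts begin with a C inside a run of pyrimidines, the 5′ terminal oligopyrimidine (TOP) tract, through which translation of the whole family is known to be controlled together. The following 30 bases lie around the RefSeq start (GRCh38.p14), 15 before and 15 from the first transcribed base on. They are given 5′ to 3′ on the strand of the gene, with the run of C and T over the start in capitals. They belong to 4 family members and to the elongation factor EEF1A1. The 4 had the smallest p among members with a start window whose first transcribed base is C or T, so each shows a run by choice.
RPL31 (chr2:101002274-101002303, plus strand): acaatccttcgcgCTCTTCCTTTCCaactt
RPL35A (chr3:197950175-197950204, plus strand): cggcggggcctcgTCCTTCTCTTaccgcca
RPL26 (chr17:8383179-8383208, minus strand): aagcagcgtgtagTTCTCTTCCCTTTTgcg
RPL27A (chr11:8682777-8682806, plus strand): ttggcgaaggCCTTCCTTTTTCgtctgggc
EEF1A1 (chr6:73521018-73521047, minus strand): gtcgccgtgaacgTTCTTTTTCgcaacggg

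A run of at least 5 C or T over the first transcribed base was found in 51 of 78 start windows (65.4%) of the 63 ribosomal protein genes with a window, against 9.6% of the 35116 windows of all genes. The median run was 10 bases in the ribosomal protein windows and 0 in all windows. Of 14 tested translation factors with a TOP tract, 13 were lower in V1 (median -0.31, and -0.19 without V1 1), among them EEF1A1, which delivers aminoacyl-tRNA to the ribosome. It measured 3896, 4674, 5704 and 6734 CPM in V1 1 to 4, against 6962, 8414 and 11845 CPM in V3 (log2 fold change -0.79, SE 0.293). EIF3F, a subunit of the initiation factor eIF3, lay between 133 and 201 CPM in V1 and between 209 and 278 CPM in V3 (-0.54, SE 0.187). Of 12 snoRNA host genes 10 were lower (median -0.20, and -0.35 without V1 1), with SNHG29 at 227, 244, 254 and 318 CPM in V1 1 to 4, against 347, 471 and 705 CPM in V3 (-0.96, SE 0.25). SNHG8 was similar (-0.92, SE 0.267). Both lists were also added after seeing values.

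The pathway that AMHR2 feeds showed no called gene. Among ligands of the family, 13 of 21 tested were higher in V1 (median 0.13, and 0.033 without V1 1). INHBB, the activin beta B subunit, measured 28.6, 25.9, 58.7 and 10.9 CPM in V1 1 to 4, against 8.47, 17.7 and 5.03 CPM in V3 (log2 fold change 1.58, SE 0.6). The groups overlap by V1 4 and V3 2. BMP7 went the other way, at 1.68, 4.46, 4.05 and 2.9 CPM in V1 and 3.54, 16.9 and 8.49 CPM in V3 (-1.56, SE 0.738, and -0.87 without V3 2). Of the 13 receptors and coreceptors tested, 6 were higher and 7 lower (median -0.029, and 0.25 without V3 1). TGFBR2 (-0.50, and -0.27 without V3 3), the coreceptor ENG (-0.41, and -0.14 without V1 1) and BMPR2 (-0.22, from -0.10 without V1 3 to -0.38 without V1 4) had small differences, and ENG was lowest in V1 1 at 36.1 CPM where the other 6 libraries held 90.7 to 135 CPM. Of 13 antagonists, 6 were higher and 7 lower (median -0.033, from -0.31 without V1 1 to 0.28 without V3 1). The activin-binding FSTL3 lay between 164 and 235 CPM in V1 and between 101 and 172 CPM in V3 (0.53, SE 0.221), and FSTL1 (-0.61, from -0.33 without V1 1 to -1.03 without V1 4) was lowest in V1 1 (89 CPM, against 226 to 477 in the others). The 15 SMAD proteins and cofactors had a median of -0.017.

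Direct BMP-SMAD targets had a median log2 fold change of 0.42, with 17 of 25 higher and 8 lower in V1 and 0 called. SMAD6, the inhibitory SMAD of BMP signalling, measured 56.2, 44.7, 48.7 and 42.2 CPM in V1 1 to 4, against 39.1, 23.3 and 28.9 CPM in V3 (0.65, SE 0.371). Its V1 libraries all lay above its V3 libraries, by 42.2 against 39.1 CPM at the closest. BAMBI, a decoy receptor, measured 21.4, 14, 19 and 12.3 CPM in V1 and 14.2, 8.42 and 5.55 CPM in V3 (0.82, SE 0.459), and RUNX3 50, 104, 65.9 and 62.2 against 62.9, 34.1 and 51.9 CPM (0.50, SE 0.269). ID1, the most widely used readout of the pathway, went the other way, at 274, 109, 230 and 273 CPM in V1 1 to 4, against 252, 406 and 605 CPM in V3 (-0.93, SE 0.598). V1 4 and V3 1, with the most AMHR2, summed to 2394 and 2396 CPM over the list, V1 1 to 3 to 2131, 2408 and 3393 CPM, and V3 2 and 3 to 2230 and 2124 CPM. Much of each sum is GREM1, a secreted BMP antagonist, at a mean of 1317 CPM in V1 and 772 CPM in V3. Weighted equally, as the mean over members of log2 CPM minus the gene's mean over the Met5a libraries, the list stood at 0.64, -0.34, -0.29 and 0.16 in V1 1 to 4 and at 0.16, -0.042 and -0.26 in V3 1 to 3. On that scale the 4 of the 7 libraries with the most AMHR2 were the 4 highest, an order seen after the fact, while CTR 1 to 3, with 0 counts of AMHR2, stood at 0.48, 0.26 and -0.76. Without V1 1 the median fold change was -0.063. Single libraries also moved RUNX3 (0.26 without V1 2 and 0.29 without V3 2), BAMBI (1.26 without V3 1) and ID1 (-0.59 without V3 3). The 23 targets of SMAD2 and SMAD3 had a median of 0.14, and of -0.058 without V3 2.

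Interferon-stimulated genes stood highest in V1 2 and V1 3 and lowest in V1 1. Of 45 tested members 39 had a higher mean in V1 and 6 a lower one (median 0.77). The groups did not overlap in 0 members, where they did not in 4.92% of all genes. Summed over the list, V1 1 to 4 held 1003, 6325, 4191 and 2612 CPM and V3 1 to 3 held 2761, 2389 and 2573 CPM. V1 1 was thus below and V1 2 and V1 3 above every V3 library, with V1 4 among them. The antiviral GTPase MX1 measured 17.7, 199, 94.3 and 48.4 CPM in V1 1 to 4, against 54, 30.2 and 12.8 CPM in V3 (log2 fold change 1.47, SE 0.684). OASL, an oligoadenylate synthetase-like protein, ranged more widely still, from 4.92 CPM in V1 1 to 328 CPM in V1 2, against 22.7 to 45.9 CPM in V3 (2.05, SE 0.987). The RNA sensor gene DDX58 lay between 8.45 and 207 CPM in V1 and between 22.8 and 41.4 CPM in V3. Without V1 2 the median of the list was 0.20 with 28 of 45 higher, and without V1 1 it was 1.09. Without V1 2 the fold change was 0.72 for MX1, 1.00 for DDX58 and 1.26 for OASL.

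The interferon-stimulated response element, the known binding site of IRF factors, lies in many but not all promoters of these genes. It was searched on either strand as GAAA, any 2 bases and GAAA again. The stretches that follow lie upstream of RefSeq starts (GRCh38.p14, plus strand as given, site in capitals) and show it in 4 members of this list.
MX1 (chr21:41431829-41431888, plus strand): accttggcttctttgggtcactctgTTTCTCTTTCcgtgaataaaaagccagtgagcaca
OAS3 (chr12:112938306-112938365, plus strand): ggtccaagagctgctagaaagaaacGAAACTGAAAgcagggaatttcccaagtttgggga
HERC5 (chr4:88456969-88457028, plus strand): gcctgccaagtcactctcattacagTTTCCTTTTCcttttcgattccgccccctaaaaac
IFI44 (chr1:78649746-78649788, plus strand): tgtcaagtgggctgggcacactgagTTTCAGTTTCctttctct

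In MX1, HERC5 and IFI44 the site reads on the opposite strand. The window of MX1 belongs to 1 of several annotated starts. The site was present in 28 of 46 promoter windows of 300 bases (60.9%) from 35 genes of the list, against 3.57% of the 35116 windows of all genes. The log2 fold changes of OAS3, HERC5 and IFI44 were 0.87, 1.24 and 1.29, none past the threshold, and 0.26, 0.22 and 0.66 without V1 2. Class I antigen presentation genes, many of them interferon targets too, had 16 of 21 members higher and 5 lower in V1 (median 0.28, and 0.12 without V1 3 and 0.44 without V1 1). TAP1, a subunit of the peptide transporter, measured 28.2, 120, 109 and 39.2 CPM in V1 1 to 4, against 45.6, 46.8 and 40.9 CPM in V3. It was high in V1 2 and V1 3, like the interferon list (fold change 0.74, and 0.41 and 0.49 without V1 2 or V1 3). The non-classical HLA-E measured 154, 221, 241 and 112 CPM in V1 and 127, 134 and 109 CPM in V3 (0.56, SE 0.255). These stretches and the TOP starts are descriptions of sequence, and binding was not measured.

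Of the cytokines and chemokines, 16 of 25 tested members had a lower mean in V1 and 9 a higher one (median -0.42, and -0.23 without V3 3). All V1 libraries lay below all V3 libraries in 4 members, where 2.64% of all genes did so. CXCL6, which attracts neutrophils, measured 4.23, 2.33, 0.612 and 9.15 CPM in V1 1 to 4, against 10.3, 25.5 and 11.5 CPM in V3 (log2 fold change -1.95, SE 0.653). CCL2, which attracts monocytes, was at or near the limit of detection in V1, at 0.116, 0.0496, 0 and 0.29 CPM, and reached 0.797, 2.54 and 1.16 CPM in V3. The interleukins IL1A (-2.40, SE 1.04) and IL1B (-1.68, SE 0.756) were highest in V3 2, at 13 and 27.3 CPM, against 0.47 to 2.77 and 2.2 to 7.57 CPM in the other 6 libraries, and without V3 2 they were at -0.86 and -0.67. NF-kB targets had 14 of 21 members lower (median -0.08). ICAM1, a leukocyte adhesion molecule, measured 62.4, 45.9, 38.9 and 113 CPM in V1 and 111, 164 and 150 CPM in V3 (-1.12, SE 0.536). The regulator NFKBIZ measured 15.1, 45.8, 14.5 and 24 CPM in V1 and 19.3, 97.3 and 90.5 CPM in V3 (-1.47, SE 0.659). In both, V3 2 and V3 3 were high.

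**Figure D4:**
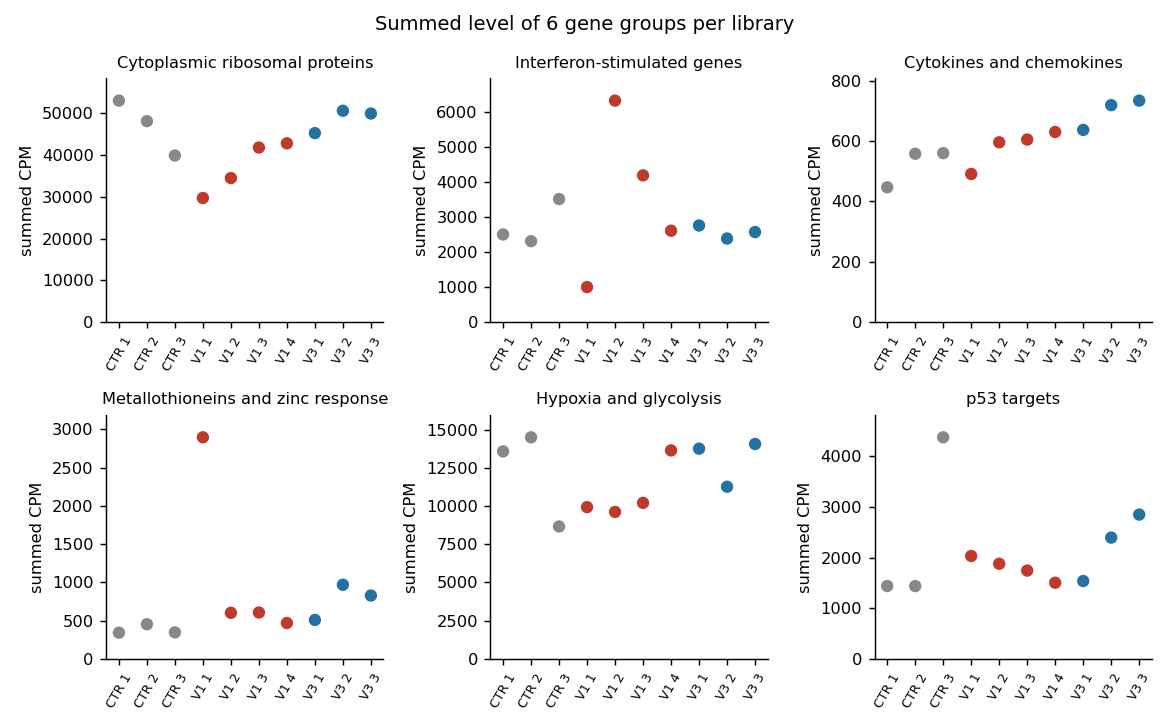
Summed level in CPM of 6 gene groups in each of the 10 Met5a libraries (grey CTR, red V1, blue V3), each axis starting at 0. Ribosomal protein genes are at or under 42788 CPM in all V1 and at or over 45237 CPM in all V3 libraries, interferon-stimulated genes peak in V1 2 at 6325 CPM, and metallothioneins with zinc-response genes peak in V1 1 at 2898 CPM.

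Collagens and other matrix genes numbered 37, of which 24 were lower in V1 (median -0.16, but 0.11 without V3 1 and -0.37 without V1 4). LAMA4, the laminin alpha 4 chain, measured 84, 44, 51.5 and 124 CPM in V1 1 to 4, against 123, 167 and 197 CPM in V3 (log2 fold change -1.10, SE 0.361). LOX, which cross-links collagen, measured 2.2, 0.793, 0.894 and 3.47 CPM in V1 and 4.18, 5.71 and 18.6 CPM in V3 (-2.37, SE 0.888), and the related LOXL2 was also lower (-0.67, SE 0.283). TNC, tenascin C, went the other way, at 111, 791, 402 and 266 CPM in V1 and 232, 109 and 40.7 CPM in V3 (1.62, SE 0.663). Outside that list, ACTA2, smooth muscle actin, measured 4.8 to 6.72 CPM in V1 and 6.97, 16.9 and 30.7 CPM in V3 (-1.68, SE 0.548). CDH11, a mesenchymal cadherin, measured 47.4, 20.7, 3.81 and 138 CPM in V1 1 to 4, against 128, 135 and 259 CPM in V3 (-1.73, SE 0.793). V1 1 to 3 were below V3 and V1 4 was at its level, the order also seen for PDPN, and the fold change was -2.85 without V1 4. SPRY1, a feedback inhibitor of receptor tyrosine kinases, had the same order, at 5.73, 2.92, 0.141 and 10.9 CPM in V1 and 12.5, 13.2 and 49.2 CPM in V3 (-2.35, SE 0.871). Without V3 3 the fold change was -1.41 for SPRY1, -1.08 for ACTA2, -1.45 for LOX and -0.41 for LOXL2, and without V1 2 it was 1.03 for TNC.

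Clustered protocadherins had 15 of 19 tested members lower in V1 (median -0.44, and 0.14 without V3 3). Their summed level was 51.8, 109, 42.2 and 95.1 CPM in V1 1 to 4, against 95.4, 57.6 and 128 CPM in V3, so the groups overlapped. HOX genes, which keep positional identity, had 17 of 29 lower and 12 higher (median -0.051). HOXA3 measured 32.8, 32.4, 43.8 and 57.7 CPM in V1 1 to 4, against 50.1, 83.5 and 126 CPM in V3 (-1.06, SE 0.321), HOXA5 had a log2 fold change of -1.11 (SE 0.452), and HOXC9 was higher, at 15.5 to 25.7 CPM against 9.48 to 14.6 CPM (0.66, SE 0.297). Without V3 3 HOXA3 was at -0.69 and HOXA5 at -0.61. Of the 18 mesothelial markers tested, 5 were higher and 13 lower (median -0.058), with KRT5 and PDPN at the extremes. The median was 0.18 without V3 1 and -0.30 without V3 3, and 9 were higher and 9 lower without V1 4 and V3 1.

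V1 1 stood apart from the other V1 and V3 libraries in some stress-response genes, picked with their values in view. A list of 6 tested genes of the response to zinc holds the metallothioneins MT1E, MT1F, MT1X and MT2A, which bind zinc and copper, the zinc exporter SLC30A1 and the zinc-sensing transcription factor MTF1. All 6 were higher in V1 (median 1.15), but V1 1 summed to 2898 CPM and V1 2 to 4 to 603, 607 and 470 CPM, against 510, 970 and 829 CPM in V3. Without V1 1 the count was 3 higher and 3 lower (median -0.16). The metallothionein genes are near-identical copies, among which reads may be split. HMOX1 (heme oxygenase 1) measured 257 CPM in V1 1 and 19.3 to 46.4 CPM in the other 6 libraries. The stress-induced genes PPP1R15A (850 CPM, against 102 to 214), ATF3 (255, against 37.5 to 56.5) and JUN (801, against 192 to 290) were also highest there. Replication-dependent histones followed the same library, with 12 of 13 higher in V1 (median 0.68) and 5 of 12 without V1 1 (median -0.042). Heat shock genes went the other way, with the lowest summed level of the 7 libraries in V1 1 (4649 CPM, against 6498 to 10912 CPM). The labels give no condition that sets V1 1 apart.

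Lists of growth and metabolism, given next, had medians between -0.34 and 0.23. DNA replication genes were higher in 29 of 34 cases by a small amount (median 0.19, and 0.062 without V1 1), whereas G2/M genes were even (16 of 30 higher, median 0.014). Targets of p53 were lower in 18 of 25 cases (median -0.34, and -0.15 without V3 3), with the death receptor gene FAS at 8.51, 15, 14.3 and 18.2 CPM in V1 1 to 4, against 14.2, 30.8 and 33.6 CPM in V3 (log2 fold change -0.90, SE 0.429). Hypoxia and glycolysis genes were lower in 25 of 31 cases (median -0.21, and -0.082 without V3 3), and their summed level was 9927, 9615, 10207 and 13638 CPM in V1 1 to 4, against 13753, 11263 and 14058 CPM in V3. Cholesterol genes were higher in 19 of 24 cases (median 0.23, and 0.082 without V1 1). Among the remaining lists, those of integrin subunits (0.021), heat shock genes (-0.029), YAP-TEAD targets (0.071), growth factors (-0.015), and Müllerian lineage and steroid receptors (-0.038) had medians close to 0. Without V3 1 the median was 0.27 for YAP-TEAD targets, 0.21 for the Müllerian list and 0.13 for growth factors. Medians farther from 0 were those of matrix proteases and inhibitors (-0.32, and -0.15 without V1 2) and NRF2 targets (0.30, and 0.093 without V1 1). Others were fibroblast markers (0.41, and -0.24 without V1 2), the Notch pathway (0.23, and 0.031 without V1 1) and epithelial-mesenchymal transition and junction genes (0.22, and 0.11 without V1 1). Single growth factors at low levels differed in opposite directions, with IGF2 at 2.63, PDGFD at -2.14 and ESM1 at -5.51.

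Leaving out V1 4 and V3 1 moved most list medians away from 0, partly by construction, because these 2 libraries of opposite groups are alike. Some medians near 0 changed sign. They were those of AMH and BMP receptors (0.033 in place of -0.029), antagonists (0.087 in place of -0.033), heat shock genes (0.0029 in place of -0.029) and growth factors (0.065 in place of -0.015). The lists that follow kept their sign. The median was 1.13 in place of 0.77 for interferon-stimulated genes, 0.36 in place of 0.28 for class I antigen presentation and 0.58 in place of 0.42 for BMP-SMAD targets. It was -0.49 in place of -0.42 for cytokines and chemokines, -0.58 in place of -0.44 for clustered protocadherins and -0.47 in place of -0.34 for p53 targets. Collagen and matrix genes, at -0.11 in place of -0.16, moved toward 0. With the pair left out, 2 V3 libraries remain, and 0 members of the lists were called except PDPN and PCDHGB5.

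**Figure D5:**
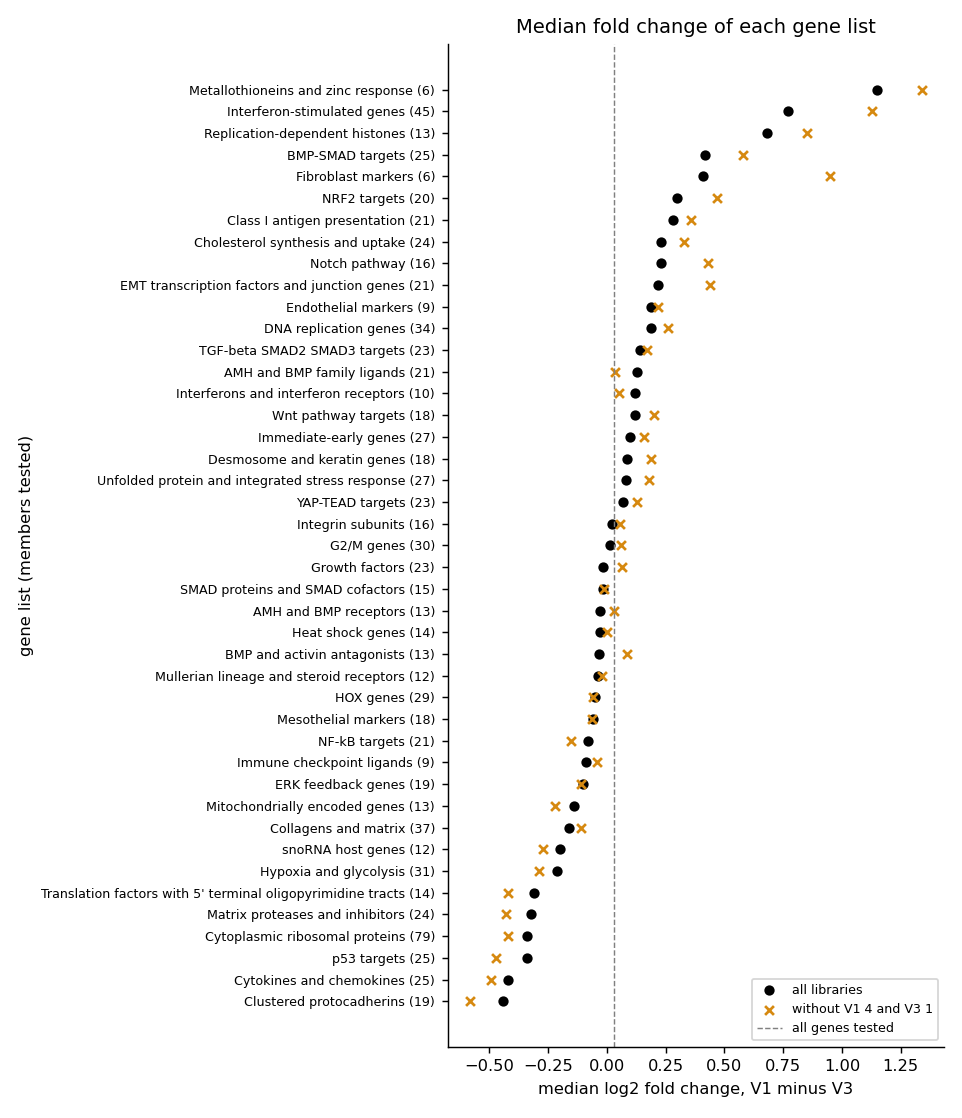
Median log2 fold change of V1 over V3 for every gene list with at least 5 tested members (number in brackets), with dots for all libraries, crosses without V1 4 and V3 1 and a dashed line at the median of all genes tested, 0.031. Metallothioneins with zinc-response genes are highest at 1.15 and clustered protocadherins lowest at -0.44.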

How the data were processed

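The values tested were the raw counts that the authors deposited for each gene in the 10 Met5a libraries. FPKM values, also deposited by the authors, were used in alternatives only. Per the labels' protocols, RNA was taken with an RNeasy column kit and handed to a sequencing company. The aligner, counter, strand setting and build: not given in the sources used here. Gene positions equal those of GENCODE on GRCh38. Groups and replicate numbers follow the titles. Rows without a gene identifier held 0 counts, and 0 columns of per-sample values were left unused. The mouse tumours were not used.

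Low genes were removed by edgeR 4.0.16 (filterByExpr, minimum count 10), and libraries were scaled by TMM. The two-sided quasi-likelihood test had 1 coefficient per group over V1, V3 and CTR, with Benjamini-Hochberg adjustment over all 17175 genes and a threshold of 0.05. Fold changes are V1 over V3 on the log2 scale, with SE and 95% interval from the same fit, and list members are counted as higher or lower by the sign of that value. AMHR2, ACVR1 and AMH were also compared by exact permutation of log2 CPM (prior count 2). Per-library values are CPM. Totals were 15489888 to 21642906 counts, and precision falls with the level of a gene (median half-width of the interval 1.52 under 1 CPM and 0.5 at 20 to 100 CPM, log2 scale). The functions were tested on simulated counts with known fold changes.

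Named genes are AMHR2, ACVR1 and AMH, up to 12 protein-coding genes per direction (with no call, those with a mean of at least 5 CPM and groups that do not overlap, by smallest p), genes called when 1 library was left out, up to 4 members of a described list by smallest p, and the 5 genes most like AMHR2. HMOX1, ATF3, PPP1R15A, JUN, the histones and the genes apart between V1 4 and V3 1 were picked with their values in view. The comparison, the 41 gene lists and the 4 added ones were chosen with earlier results of these data known, and lists are described by counts and medians, with no test. A gene that DESeq2 called and some list members are not reported here. List symbols were all matched, 3 of them through a newer name. Sequences are from RefSeq (GRCh38.p14) promoter windows of 250 bases before and 50 from the start on.

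The alternatives tried were no filter, median-ratio (RLE) factors, DESeq2 1.42.0, limma 3.58.1 on log2(FPKM + 1) and log2(FPKM + 0.1) for genes with a mean FPKM of at least 1 and on log2(FPKM + 1) for all genes, V1 and V3 libraries only, a replicate block, AMHR2 level as a covariate, each library left out, and V1 4 with V3 1 left out. Scaling without ribosomal protein genes was chosen after seeing the data.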

Additional observations from a re-analysis of the deposited data

Results flagged for a closer look

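Of 78 genes named in the text, 5 had 1 V1 library far from the other 3 on the log2 CPM scale, by Dixon's test of the gap to the nearest library, which chance passes in about 1 of 20 groups. The number flagged is close to that share, and HMOX1 was picked with its values in view. The V3 group, with 3 libraries, was not tested. V1 1 was the distant library in 4 of the 5. It was low in CD47 (25 CPM) and HOXA5 (9.84 CPM) and high in MT1E (873 CPM) and HMOX1 (257 CPM). The other V1 libraries held 33.7 to 35.4 CPM of CD47, 26.3 to 28.6 CPM of HOXA5, 64.7 to 80.9 CPM of MT1E and 35.8 to 44.4 CPM of HMOX1. In ESM1, a proteoglycan secreted by endothelial cells, V1 4 held 0.232 CPM and the other V1 libraries had no counts, against 0.747 to 6.78 CPM in V3. That value is near the limit of 0.174 CPM in V1 4. With the others tied at 0, almost any count there would be flagged.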

How the results depend on the processing

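The count of called genes, 0 with all libraries, was also 0 with RLE factors, with limma on log2(FPKM + 1) and log2(FPKM + 0.1) at the filter on FPKM, with the V1 and V3 libraries only, with AMHR2 as a covariate, and with ribosomal protein genes left out of the scaling. It was 75 with no filter, 1 with DESeq2, 2 with limma and no filter on FPKM, 3 with the replicate block, 3 without V1 4 and V3 1 together, and 0 to 3 across the fits that each drop 1 library (3 without V1 4). Replicate numbers do not pair the libraries (correlation of the deviations of same-numbered V1 and V3 libraries -0.0553, 0.00473 and -0.0741), so the block result is a setting and no paired test. Genes whose groups do not overlap, 845 with all libraries, numbered 1227 to 3226 across the same fits (3226 without V3 1) and 4534 without V1 4 and V3 1, partly by construction, because fewer libraries overlap less often. The difference in AMHR2 (log2 CPM) of -0.70 lay between -3.29 and 2.25, at 0.94 without V1 3 and 2.25 without V3 1. The fold changes that changed sign were those of AMHR2 (-6.07 without V1 4 to 5.36 without V3 1, 0.0029 with its own level as a covariate), ACVR1 (-3.41 without V1 4 to 2.96 without V3 1, 0.20 without both), AMH (-0.024 with the block, -0.04 without V1 3, -0.13 without V3 3 and up to 0.21 without V3 1). Without V1 1 they were also those of MT1E (-0.41, and up to 1.81 without another library), ATF3 (-0.14, up to 1.26) and PPP1R15A (-0.31, up to 1.21). COL3A1 was at -0.24 without V1 2 and at 1.62 without V3 1. None was called with all libraries, and the cause was not tested. The share of genes whose interval lies within 2-fold ran from 34.2% without V1 4 and V3 1 to 55.9% with AMHR2 as a covariate, beside 31.3% with no filter. Depth limits genes under 1 CPM most.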
